A study of Mus musculus with 5 samples.

Results

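The genes described here are 39 cytokine, chemokine and NF-kB genes of the mouse, out of 21840 protein-coding genes in the annotation: 11 CC chemokines, 6 CXC chemokines, 8 interleukins and TNF, 5 cytokine receptors, 5 NF-kB subunits, 3 inhibitors and feedback genes of NF-kB, and Ptgs2. All 39 were found in the annotation. A peak was given to a gene when the transcription start site (TSS) nearest to the middle of the peak was that of the gene. This attaches a peak to a gene by position alone, and neither expression nor contact between the peak and the promoter was measured.

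RXRα binding was profiled by HT-ChIPmentation, a form of ChIP-seq for small cell numbers that builds the library with the Tn5 transposase while the precipitated chromatin is still bound to beads. The cells were alveolar macrophages (AMs), which reside in the airspace, and they were washed from mouse lungs by lavage and sorted by flow cytometry. The paper describes the profiled cells of both genotypes as mature AMs, where the sample titles say only AMs. All mice carried floxed Rxra and Rxrb alleles. The pair of WT libraries (WT A and WT G) came from mice without Cre (CD11cCre- Rxrabfl/fl), the pair of KO libraries (KO A and KO G) from CD11cCre+ Rxrabfl/fl mice, and 1 input sample was the control for all peak calls. The methods give an age of 9 weeks and the C57BL/6J background for mice used in HT-ChIPmentation, and name no treatment. The Cd11c promoter that drives Cre is active in AMs and in other CD11c+ cells such as dendritic cells. The number of mice behind each library is not given in the sources used here, so a p-value measures only the spread between these libraries. Peak lists do not show expression, so neither the AM identity of the cells nor the deletion of Rxra and Rxrb could be checked in them.

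Chemokines are secreted proteins that draw leukocytes along a gradient, and cytokines such as the IL-1 family, IL-6 and TNF carry the alarm signal between cells. Many of these genes are switched on by NF-kB, a family of dimeric transcription factors held in the cytoplasm by inhibitors of the IκB family. NF-kB also switches on its own inhibitors, which closes the loop. RXRα is a nuclear receptor that binds DNA as a homodimer or with partners such as PPARs, LXRs and RARs, at repeats of the half-site AGGTCA. The spacing of the half-sites is named DR1, DR4 or DR5 after the number of bases between them. Nuclear receptors are known to restrain inflammatory genes in macrophages, and AMs are known for a high threshold of inflammatory response.

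The comparison of genotypes addressed where RXRα was found at these genes and what was still found without the receptor. The WT lists held 61 (WT A) and 108 (WT G) peaks nearest to one of the 39 genes, and the KO lists held 0 (KO A) and 2 (KO G). The WT and KO values did not overlap. The mean was 84.5 ± 33.2 peaks in WT and 1 ± 1.41 in KO (SD, n = 2 libraries each), and the exact two-sided permutation test gave p = 0.33, the smallest that 2 against 2 libraries allow. The ratio of 169 WT peaks to 2 KO peaks was 84.5, with a 95% exact interval of 23.0 to 703 that covers counting error only; neighbouring peaks are not independent. Over all peaks the same ratio was 49.9. The ratio was 42.25 without KO A and, against a floor of 3 peaks in KO A, at least 28.2 without KO G. With a −log10 q of at least 5 it was 46.5, against 43.4 over all peaks, and with the WT G list cut to as many peaks as WT A has it was 56.5, against 32.7.

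The lists differed in length and in depth. In all there were 4751 (WT A) and 9766 (WT G) peaks, against 83 (KO A) and 208 (KO G). The depth of the library, derived from its list and relative to the input, was 1.13 for WT A and 0.237 for WT G, and 0.647 and 0.848 for the KO libraries in the same order. WT G, the library of least depth, thus had the longest list. Its weakest peaks had 5 fragments at the summit, and those of WT A and KO A had 10 and those of KO G 8.

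**Figure D1:**
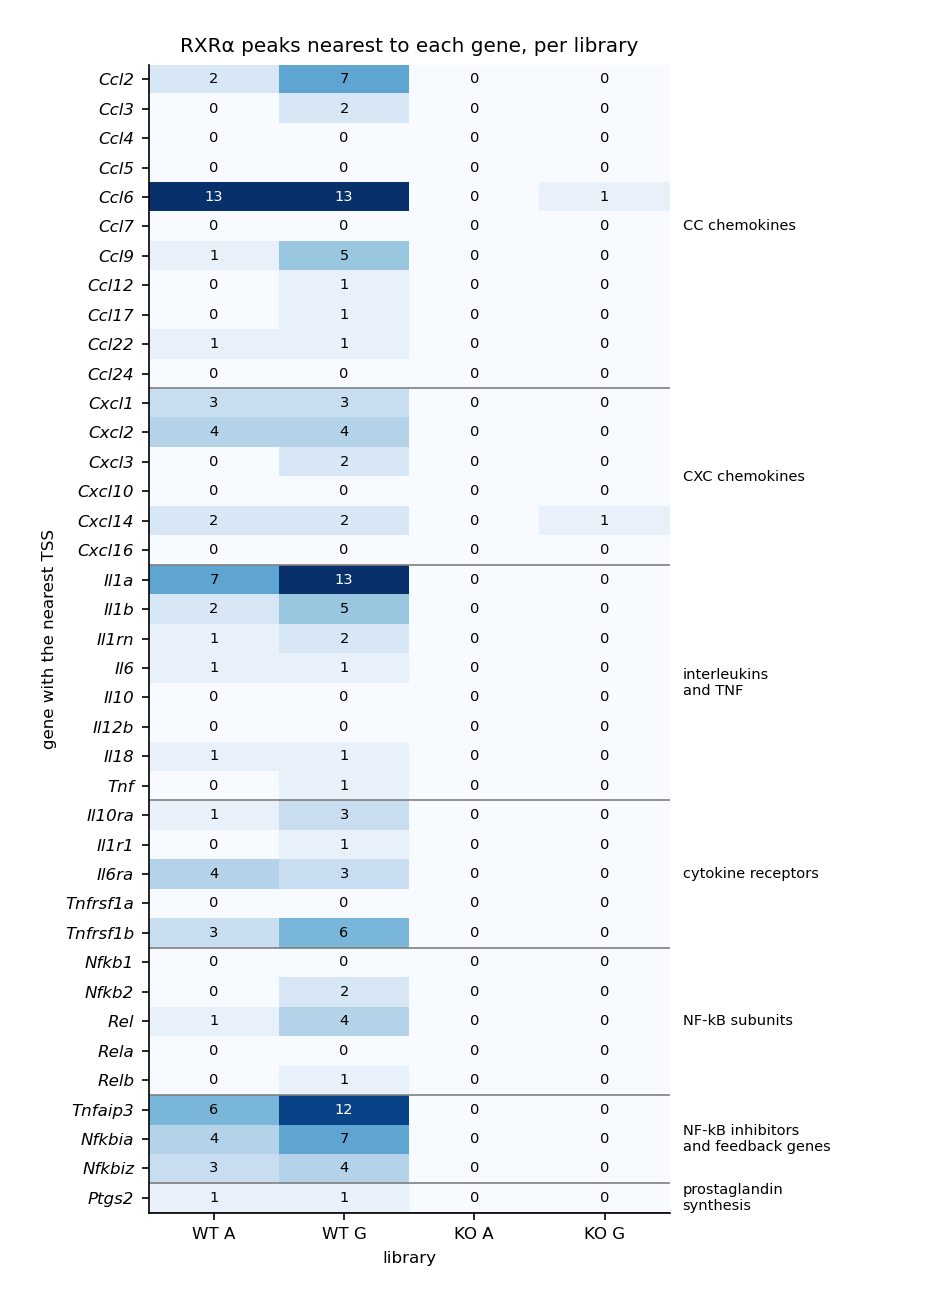
Number of RXRα peaks nearest to each of the 39 genes (rows, grouped by role) in each library (columns), with darker blue for more peaks. Ccl6 had 13 peaks in each WT list, and only Ccl6 and Cxcl14 had a peak in a KO list.

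Of the 39 genes, 20 had a peak in WT A, where 10.4% of all protein-coding genes had one, and 28 had a peak in WT G, where the share of all genes was 16.6%. In KO A 0 of the 39 had a peak (0.353% of all genes), and in KO G 2 had one (0.861% of all genes). To keep what both WT libraries showed, overlapping WT peaks were joined into regions, and those with a peak from each library are called shared. There were 3423 shared regions, and 44 of them (1.29%) were nearest to one of the 39 genes.

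A shared region was found for 19 of the 39 genes, or 48.7% (95% exact interval 32.4% to 65.2%, counting error only), against 8.85% of all protein-coding genes. The 39 genes were chosen with earlier results of these data known, so this contrast is a description and was not tested. Some of them are neighbours and not independent, which the interval leaves out. The share of all genes counts genes whether or not AMs express them. Genes in open stretches of the genome collect more regions, so the share of all genes was also weighted to the spacing of the 39. It was then 8.58%. The 39 genes lay in slightly denser surroundings than the average gene, with a median of 75.1 kb between neighbouring TSSs against 92.9 kb for all genes. Of the 19 genes, 10 had 2 or more shared regions, and 37.2% of all genes with a shared region did.

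The 5 strongest regions, by the sum of their ranks in both WT lists, lay at Ccl6, again at Ccl6, and at Cxcl14, Il1a and Cxcl2. Their sequences are shown because they carry the strongest RXRα signal at these genes. Each is the forward strand of GRCm38 (mm10), reaching 50 bases to the left and right of the highest summit in the region, and capitals mark a motif match. That summit came from a single WT list, and of these 5 windows only that of Il1a also held the summit of the other list. In the second Ccl6 window they mark C/EBP, and in the Il1a window a DR5 on the reverse strand with 1 mismatch.
Ccl6, chr11:83593500-83593600: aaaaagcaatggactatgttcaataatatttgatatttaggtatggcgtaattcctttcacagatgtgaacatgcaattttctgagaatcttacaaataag
Ccl6, chr11:83605668-83605768: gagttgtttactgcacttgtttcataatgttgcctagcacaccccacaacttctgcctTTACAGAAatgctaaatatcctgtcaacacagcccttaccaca
Cxcl14, chr13:56353417-56353517: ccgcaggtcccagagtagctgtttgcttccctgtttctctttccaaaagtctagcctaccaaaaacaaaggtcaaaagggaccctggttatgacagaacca
Il1a, chr2:129306203-129306303: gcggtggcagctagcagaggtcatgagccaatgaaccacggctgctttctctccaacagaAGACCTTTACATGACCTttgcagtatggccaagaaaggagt
Cxcl2, chr5:90898708-90898808: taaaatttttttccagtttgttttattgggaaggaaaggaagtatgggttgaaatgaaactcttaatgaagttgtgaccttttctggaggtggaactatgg

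A second set is shown because it holds the matches to the receptor's own DR1 element and to NF-kB. In the Ccl6, Il1a and Il1rn windows the capitals mark a DR1 with 2 mismatches, on the reverse strand at Ccl6 and on the forward strand at Il1a and Il1rn. In the Tnfaip3 window, which lies at the promoter, they mark an NF-kB match on the reverse strand.
Ccl6, chr11:83618791-83618891: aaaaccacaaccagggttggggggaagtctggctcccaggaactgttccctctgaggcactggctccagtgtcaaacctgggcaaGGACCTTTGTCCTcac
Il1a, chr2:129331482-129331582: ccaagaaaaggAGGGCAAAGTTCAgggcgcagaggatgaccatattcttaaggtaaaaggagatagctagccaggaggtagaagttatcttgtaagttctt
Il1rn, chr2:24318190-24318290: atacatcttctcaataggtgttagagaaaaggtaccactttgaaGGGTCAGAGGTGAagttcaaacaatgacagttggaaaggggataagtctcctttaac
Tnfaip3, chr10:19015486-19015586: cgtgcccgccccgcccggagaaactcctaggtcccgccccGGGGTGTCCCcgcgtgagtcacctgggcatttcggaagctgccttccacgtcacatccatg

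Among the CC chemokines, 4 of 11 genes had a shared region, and 7 of their 11 regions were those of Ccl6. Ccl6 encodes a CC chemokine of rodents that acts through CCR1. Of the 1933 genes with a shared region, 41 had 7 or more. The strongest Ccl6 region (chr11:83591273-83593935) spanned the TSS. Its midpoint lay 0.483 kb downstream, in an intron, but its highest summits lay at the promoter, 0.045 kb upstream in WT A and 0.463 kb upstream in WT G. Its −log10 q was 20.3 in WT A and 38.1 in WT G, with a fold enrichment of 10.4 and 20.6 over the local background and 34 and 31 fragments at the summit. In WT A the local background there was 1.59 times that of the genome, and in WT G 1.00 times.

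The next Ccl6 region (chr11:83603089-83606266) lay 11.6 kb upstream with a −log10 q of 22.0 and 20.3 (WT A and WT G, in this order from here on). These values belong to different summits, 12.6 kb upstream in WT A and 10.8 kb upstream in WT G. The values given for a region are those of its strongest peak in each list, whose summits can lie apart. Another, 7.55 kb upstream, had 13.5 and 10.5. A group of 3 regions lay 23.7, 25.1 and 25.8 kb upstream with 14.7 and 9.95, 9.11 and 10.5, and 5.22 and 15.9, and the last of these holds the DR1 match shown for Ccl6. All 5 upstream regions lay in introns of E230016K23Rik, a non-coding transcript. A region at the end of Ccl6, 5.72 kb downstream of its TSS, had 7.14 and 5.73. The regions of Ccl6 thus lay on both sides of its start, and the first by rank sum lay at the start itself.

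Ccl9, the neighbour of Ccl6 and also a ligand of CCR1, had 1 shared region (chr11:83583202-83583715) 4.82 kb upstream, in the same non-coding transcript, with a −log10 q of 7.14 and 9.26. Ccl2, which draws monocytes through CCR2, had 2. The stronger by rank (chr11:82022615-82023009) lay 12.8 kb upstream with 3.94 and 8.04, and the other 18.9 kb upstream with 6.16 and 4.64. Ccl22, a ligand of CCR4, had a weak region (chr8:94733640-94734099) 11.7 kb upstream with 4.31 and 2.95 and with 13 and 7 fragments. These regions had fewer fragments than the strongest Ccl6 region in both libraries.

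The other 7 CC chemokines had no shared region. Ccl3, a ligand of CCR1, had 2 peaks in WT G only, at 0.163 kb downstream (−log10 q 4.64, 8 fragments) and at its promoter (3.61, 7 fragments). Ccl12 had a promoter peak of 3.61 and Ccl17 a peak of 3.87 at 6.07 kb upstream, both in WT G only. Ccl4, Ccl5, Ccl7 and Ccl24 had no peak in either WT list. Absence of a gene from the list is not absence of binding nearby, since the chemokine genes stand in clusters. The closest shared region to Ccl3 (8.65 kb) and to Ccl4 (21.9 kb) was the same, given by position to Rpl9-ps1, with 4.31 and 11.8. The closest to Ccl7 lay 22.9 kb away and was the Ccl2 region above, the closest to Ccl5 lay 52.9 kb away and was the Ccl9 region, and that to Ccl12 lay 38.0 kb away and was nearest to Ccl8. Ccl17 (76.6 kb) and Ccl24 (101.1 kb) were farther from any.

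Among the CXC chemokines, 3 of 6 genes had a shared region. Cxcl1 and Cxcl2 encode ligands of CXCR2 that draw neutrophils, and they are neighbours on chromosome 5. Cxcl2 had a region (chr5:90897181-90899347) 5.61 kb upstream with a −log10 q of 19.4 and 11.8, a fold enrichment of 11.8 and 9.67, and 29 and 14 fragments, and a second at its promoter (chr5:90903324-90903834, 0.292 kb upstream) with 8.06 and 14.5. The summits of the upstream Cxcl2 region lay apart, 5.11 kb upstream in WT A and 5.72 kb upstream in WT G. Cxcl1 had 2 weaker regions, at 9.44 and 13.9 kb upstream, each with 8.06 and 4.64. By rank sum, both Cxcl2 regions stood above both Cxcl1 regions. The Cxcl1 TSS was closer to the upstream Cxcl2 region (7.02 kb) than to its own 2.

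Cxcl14 had 1 shared region (chr13:56352607-56353775), in intergenic sequence 56.6 kb upstream of the TSS. Its −log10 q was 15.7 and 24.8, its fold enrichment 10.1 and 15.4, and it had 25 and 23 fragments. It was the third strongest of the 44 although it lay among the 6 that were more than 50 kb from the TSS. Cxcl3 had 2 peaks in WT G only, the stronger with 8.04 (11 fragments) at 3.32 kb downstream. Cxcl10 and Cxcl16 had no peak of their own. The closest shared region to Cxcl10, 26.2 kb away, was that of Cxcl9 (11.3 and 14.5), and the closest to Cxcl16, 6.63 kb away, lay at the end of Med11 (13.5 and 10.5).

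Among the interleukins and TNF, 5 of 8 genes had a shared region, and 6 of the 10 regions were those of Il1a. Il1a encodes IL-1α, an alarm cytokine released by injured cells. The strongest Il1a region (chr2:129306017-129306516) lay within the gene, 3.71 kb downstream of its TSS, at an exon of the overlapping non-coding transcript Gm14023. It had a −log10 q of 15.8 and 14.5, a fold enrichment of 10.2 and 10.96, and 25 and 16 fragments, and it carries the DR5 match shown above. The other 5 lay upstream, between 4.24 and 28.3 kb from the TSS, with 13.8 and 6.94 at the strongest and 4.31 and 3.87 at the weakest by rank. The region 21.6 kb upstream, with 10.02 and 6.18, holds the Il1a DR1 match.

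Il1b, which encodes IL-1β and is the neighbour of Il1a, had the weakest of the 44 regions (chr2:129360583-129360923), 10.4 kb downstream of its TSS, with a −log10 q of 1.81 and 1.73 and 12 and 7 fragments. Its strongest peaks were in single lists, a WT A peak beside that region (chr2:129360273-129360483) with 9.11 and 19 fragments, and a WT G peak 2.82 kb upstream with 5.73. Il1rn, which encodes the antagonist of the IL-1 receptor, had a region (chr2:24318093-24318327) 18.6 kb upstream with 4.78 and 3.17, at whose summit the DR1 match of Il1rn was found. Il18, a further cytokine of the IL-1 family, had an intronic region (chr9:50567355-50567922) with 10.2 and 10.5, at 2.26 kb from the nearest of its starts. Il6 had a region (chr5:29948154-29948714) 64.7 kb upstream, at an exon of the transcript Gm43386, with 10.1 and 6.88. Tnf had only a peak in WT G, in an intron 0.793 kb from the nearest start, with 4.64 and 8 fragments. Il10 and Il12b had no peak, and their closest shared regions were 70.6 and 1453 kb away.

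Among the cytokine receptors, 3 of 5 genes had a shared region. Il6ra, the IL-6 binding chain of the receptor, had 3 regions within its gene. The strongest (chr3:89905297-89905902) lay 7.56 kb downstream of its TSS with a −log10 q of 9.92 and 11.8, and the others, 1.88 and 0.747 kb downstream, had 8.06 and 5.73, and 8.06 and 3.61. Tnfrsf1b, the second TNF receptor, had 3, of which the strongest (chr4:145233720-145234226) was intronic, 12.9 kb downstream, with 9.11 and 9.26. The other 2, 5.91 kb downstream and 20.8 kb upstream (in an exon of Tnfrsf8), had 4.31 and 5.73, and 5.50 and 4.84. Il10ra, the IL-10 binding chain of its receptor, had 1 region (chr9:45282536-45282799) 13.5 kb upstream with 7.14 and 3.17. Il1r1 had a peak in WT G only, with 4.64. Tnfrsf1a, the first TNF receptor, had no peak, and its closest shared region was 78.0 kb away.

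Of the 5 NF-kB subunits 0 had a shared region, where 8.85% of all genes had one, so that a count of 0 among 5 is near that background. The 3 inhibitors and feedback genes among the 39 each had at least 2, which 719 of the 21840 genes had. These 3 lay in open stretches, with 512 kb (Tnfaip3), 166 kb (Nfkbia) and 597 kb (Nfkbiz) between neighbouring TSSs. The median was 92.9 kb over all genes, and the subunits had 51.4 kb (Rela) to 340 kb (Nfkb1). The count of 719 genes was not weighted to this spacing. Over the list of 41 other genes of NF-kB signalling and control, 8 had a shared region. The subunits still had peaks in single lists. Rel had 1 peak in WT A (4.31, 13 fragments), 2.13 kb downstream, and 4 in WT G (up to 8.04, 11 fragments), all in introns of the gene and none overlapping the WT A peak. Nfkb2 had 2 promoter peaks in WT G (6.88 and 3.61) and Relb an intronic peak in WT G (5.73). Nfkb1 and Rela had no peak, and their closest shared regions were 187 and 165 kb away.

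Tnfaip3 encodes A20, a ubiquitin-editing enzyme that ends NF-kB signalling, and had 6 shared regions. Of the 1933 genes with a shared region, 64 had 6 or more. The strongest (chr10:19061730-19062985) was intergenic, 46.9 kb upstream, with a −log10 q of 12.4 and 14.5, a fold enrichment of 9.07 and 10.96, and 22 and 16 fragments. Others upstream lay at 38.4 kb (6.16 and 6.88) and 83.8 kb (8.06 and 8.04). In the gene there were regions at 2.54 kb (9.11 and 13.2) and 1.39 kb (4.31 and 4.64) downstream, and a region at the promoter (chr10:19015269-19015685) with 5.22 and 3.61 and 14 and 7 fragments holds the NF-kB match. The promoter region was thus weaker by rank than the distal ones.

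Nfkbia encodes IκBα, the classical inhibitor that holds NF-kB in the cytoplasm, and had 2 shared regions. The stronger (chr12:55473881-55474285) lay 18.6 kb downstream of the TSS, past the end of the gene, with a −log10 q of 12.4 and 14.2 and 22 and 17 fragments. The second, 3.88 kb downstream at the end of the gene, had 10.2 and 11.7. Nfkbiz encodes IκBζ, a nuclear member of the IκB family that is needed for a subset of NF-kB targets. Both of its regions lay far downstream in intergenic sequence. The first (chr16:55735517-55735992), 86.4 kb away, had 14.7 and 6.88 with a DR5 match of 1 mismatch at the summit, and the second, 87.8 kb away, had 7.14 and 5.73. Ptgs2 encodes cyclooxygenase 2, which makes prostaglandins from arachidonic acid. Its region (chr1:150164894-150165396) lay 65.1 kb downstream, at the promoter of the non-coding transcript Ptgs2os2, with 8.06 and 6.88.

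**Figure D2:**
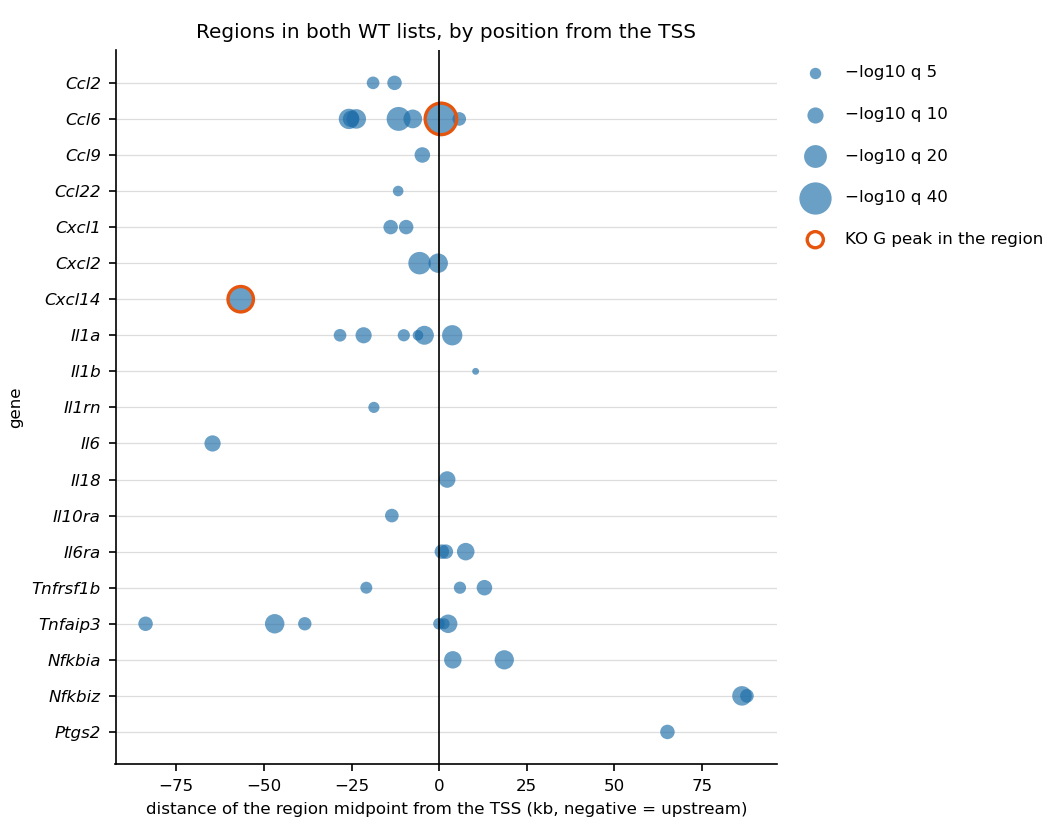
Position of each of the 44 shared regions (points) relative to the TSS of its gene (rows), in kb with upstream to the left, with the area of a point set by the higher −log10 q of the WT lists and an orange ring where KO G had a peak. Upstream of the TSS lay 27 regions and downstream 17, and 19 were within 10 kb.

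Where the regions lay was described against all 3423 shared regions, without a test. Their median distance from the TSS was 11.7 kb, against 15.7 kb, and 43.2% lay within 10 kb, against 39.4%. Of the 44, 5 lay at a promoter of any annotated transcript (11.4%, against 10.8%), and 2 of these were promoters of the genes themselves, Cxcl2 and Tnfaip3. By the highest summit in place of the midpoint there were 6, with the strongest Ccl6 region added. There were 2 at the end of a gene (4.55%, against 3.45%), 3 in exons (6.82%, against 3.42%), 16 in introns (36.4%, against 50.8%) and 18 in intergenic sequence (40.9%, against 31.5%). The bodies of the genes themselves held 11. When every gene with a TSS within 50 kb of a shared region was counted, whether or not it was the nearest, 22 of the 39 (56.4%) had one, against 16.0% of all genes. These 22 included Ccl3, Ccl4, Ccl7, Ccl12, Cxcl10, Cxcl16 and Relb, and left out Cxcl14, Il6, Nfkbiz and Ptgs2.

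The strength of the regions was close to that of all shared regions. The median −log10 q was 8.06 in WT A, against 8.06 over all, and 6.88 in WT G, against 8.04. The median fold enrichment was 7.31 and 7.09, against 6.72 and 7.60, and the median number of fragments was 18 and 10, against 17 and 11. Spearman's rho between the WT lists was 0.705 over the 44 regions and 0.522 over all 3423; the points share the libraries and the input. WT G had more fragments per depth than WT A at each of the 44 regions, by a median of 2.94 times (1.86 to 5.80), against a median of 2.98 times over all shared regions.

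**Figure D3:**
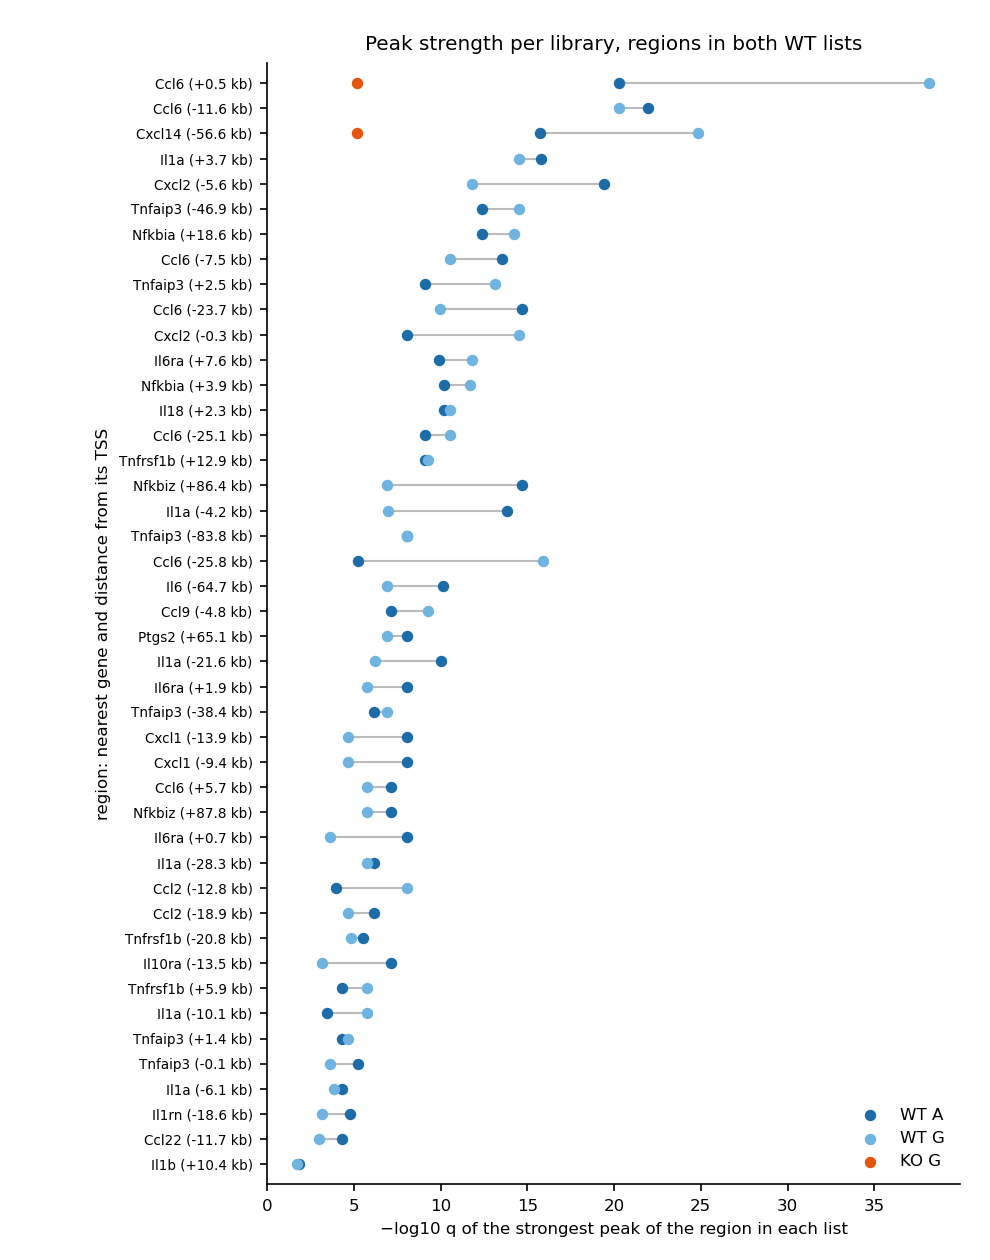
The −log10 q of each of the 44 shared regions (rows, named by gene and distance from the TSS) in WT A (dark blue), WT G (light blue) and, where there was a peak, KO G (orange), in order of the rank sum. The strongest region, at Ccl6, had 20.3 and 38.1 in the WT lists and 5.20 in KO G.

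In the KO lists 2 of the 44 regions (4.55%) still had a peak, against 5.87% of all shared regions. Both peaks were of KO G (5.35% of all shared regions), and 0 of 44 regions had a peak of KO A (2.16% of all). Both were among the 3 strongest regions in WT. At Ccl6 the KO G peak (chr11:83593366-83593558) lay 0.375 kb upstream of the TSS and within the strongest region, over the WT G summit, with a −log10 q of 5.20, a fold enrichment of 6.72 and 12 fragments. At Cxcl14 the KO G peak (chr13:56353136-56353391) had 5.20, 6.69 and 12 fragments. WT A, of which the depth was 1.33 times that of KO G, had 34 and 25 fragments at these regions, and WT G, at a lower depth than KO G by 3.58 times, had 31 and 23. When peaks had to overlap by at least 50% of both lengths, 20 regions were left and 0 of them had a KO peak. That 0 follows from the widths and does not show that the KO G peaks were gone. The Ccl6 region was kept, but its KO G peak of 193 bp cannot cover 50% of a region of 2663 bp. The Cxcl14 region was lost.

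Whether the depth of the KO libraries could have shown the regions was described by scaling the fragments of each WT library to the depth of each KO library. At the WT A rate, KO G would have held 9.0 to 25.5 fragments at the 44 regions, and the weakest peak of its list had 8. All 44 regions were thus at or above that level, and 42 had no peak. The level is the lowest of the list, and a region that reaches it need not be called. The median peak of KO G had 12 fragments, and the median over the 44 regions at the WT A rate was 13.5. KO A would have held 6.86 to 19.4 fragments at the WT A rate, and its weakest peak had 10. There, 23 of the 44 were at or above the level, as were 46.7% of all shared regions, and 21 were below it, so that a missing peak in KO A says little for those 21. At the WT G rate, all 44 were above the level in both KO lists. The regions were chosen because both WT lists called them, so the WT rates lean high.

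**Figure D4:**
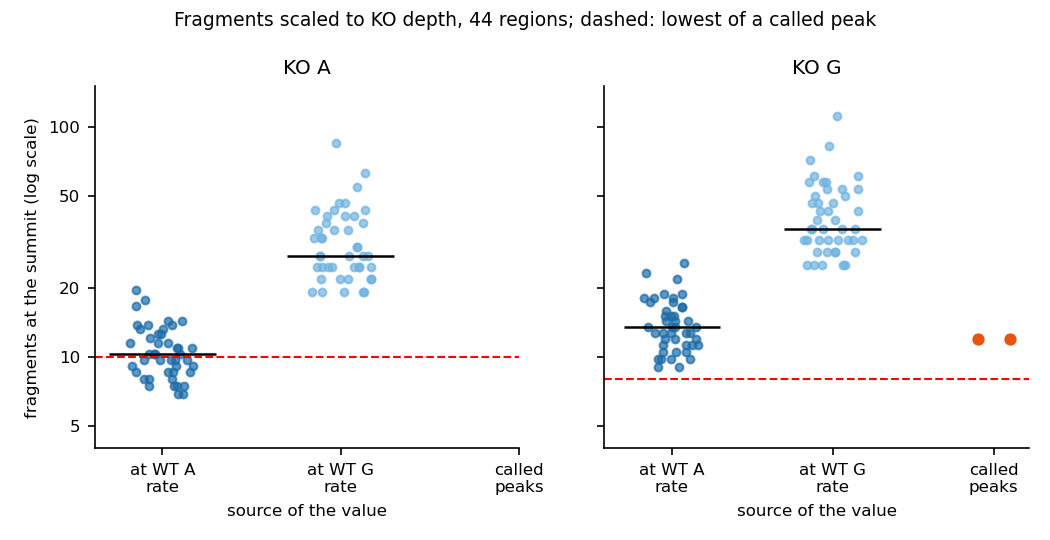
Fragments at the summit (log scale) of the 44 shared regions, scaled from WT A (dark blue) and WT G (light blue) to the depth of KO A (left) and KO G (right), with the median as a black line and the lowest number that gave a peak in that KO list as a dashed line. The 2 orange points are the called KO G peaks, each with 12 fragments.

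Motifs were counted within 50 bases of the highest summit of each region. A DR1 with at most 2 mismatches was found in 3 of the 44 windows (6.82%), the Ccl6, Il1a and Il1rn windows shown above, against 6.34% of all shared regions. A DR5 was found in 2 (4.55%, against 2.57%), at Il1a and Nfkbiz, and a DR4 in 0 (against 1.90%). A DR1 with its letters shuffled was found in 0 of the 44 windows and in 0.292% of all. The C/EBP motif was found in 9 (20.5%, against 19.4%), at regions of Ccl6, Cxcl1, Il1a, Tnfaip3 and Ptgs2. AP-1 was found in 4 (9.09%, against 5.49%), RUNX in 2 (4.55%, against 4.32%) and PU.1 in 1, at Il18 (2.27%, against 3.30%). NF-kB was found in 1, at the promoter of Tnfaip3 (2.27%, against 1.55%), where an AP-1 match lay beside it without overlap. With 44 windows each of these shares rests on few matches, and the rule moved them: with at most 1 mismatch, 0 windows held a DR1 and 7 an NF-kB match. The shares of all shared regions given above hold for the main rule only, so these counts cannot be set against them. A match is a run of letters and no measured site, and its absence says only that these letters are not in the window.

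Other genes of these pathways were counted from a list of 125 chemokines, cytokines, receptors and NF-kB signalling genes. The annotation held 124 of them as protein-coding genes. A shared region was found for 28 of the 124 (22.6%), against 8.85% of all genes, or 9.59% when weighted to the spacing of the 124. By role, 8 of 19 chemokine receptors and 8 of 23 other cytokine receptors had one, against 2 of 19 other chemokines and 2 of 22 other cytokines, and 8 of 41 genes of NF-kB signalling. Receptors thus made up 16 of the 28.

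**Figure D5:**
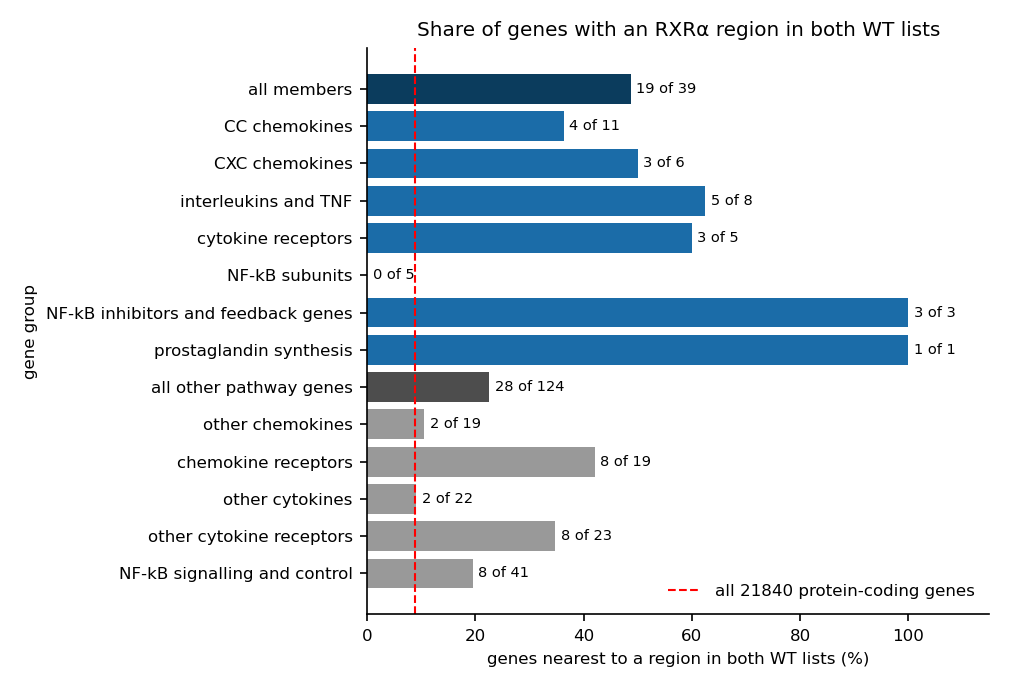
Percentage of the genes of each group that had a shared region, for the 39 genes and their roles (blue) and for the other pathway genes and their roles (grey), with the count at each bar. The dashed line is the share of all 21840 protein-coding genes, 8.85%.

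The strongest of these regions lay at Ccrl2, an atypical receptor that binds chemerin, 1.91 kb upstream (chr9:111058967-111059895), with a −log10 q of 27.2 and 23.2. Ccl8, a chemokine of the Ccl2 cluster, had a region 24.6 kb downstream with 22.0 and 14.5. Ccr1, a receptor for Ccl6 and Ccl9, had 6 regions, the strongest 30.6 kb downstream with 15.8 and 20.3. Ifnar2, a chain of the receptor for type I interferons, had a region 17.8 kb upstream with 18.2 and 17.3. Map3k8, a kinase downstream of Toll-like receptors, tied with it at 18.2 in WT A (14.5 in WT G) and had a peak in both KO lists, with 5.04 in KO A and 6.31 in KO G.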

How the data were processed

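RXRα HT-ChIPmentation peak lists of AMs were used (WT A, WT G, KO A and KO G). Groups and letters came from the sample labels. The authors aligned reads to mm10 with Bowtie2, after trimming with cutadapt and filtering with SAMtools, and called peaks with MACS3 (q of 0.05) for each library on its own against 1 input. Each deposited fold enrichment is a ratio, pileup over local background at the summit, after 1 was added to both. The −log10 p and −log10 q, as deposited, belong to the same summit, whose position is also deposited. The deposited score repeats the −log10 q, multiplied by 10 and cut to a whole number. The lists hold no read counts, so peaks were compared by number and overlap.

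WT peaks overlapping by at least 1 bp were merged. The nearest TSS was taken from the midpoint over all protein-coding transcripts of GENCODE M21 (basic). Regions were annotated at their midpoints as promoter (from 1 kb before to 100 bp after a TSS), end of a gene (from 100 bp before to 1 kb after the end of a transcript), exon, intron or intergenic, in that order. For the weighted share, all genes were weighted to the members over 10 classes of TSS spacing. Fragments at summits were solved from both deposited values, the fold enrichment and the −log10 p, the latter as a Poisson tail (within 0.004, or 0.012 in WT A, of which the pileup was scaled by 0.884), in every peak. Depths were derived from the background level and the shortest peak length of each list and were not set against sequencing totals.

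Motifs were scanned on both strands in windows of 101 bp as DR1 (AGGTCANAGGTCA), DR4 (AGGTCANNNNAGGTCA) and DR5 (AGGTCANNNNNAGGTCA) with at most 2 mismatches, and without a mismatch as C/EBP (TTACNNAA or TTGCNNAA), PU.1 (AAGGAAGTG or GAGGAAGTG), AP-1 (TGACTCA or TGAGTCA), RUNX (TGCGGTTA, TGCGGTTT, TGTGGTTA or TGTGGTTT) and NF-kB, by its name; the control was GATCGCNTGAAGA. The DR motifs share their half-site and can overlap. Sequences are from the RefSeq copy of GRCm38.

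The members and lists were chosen with earlier results of these data known, so no list was tested. Every member is accounted for; members with a shared region are given by their strongest region, sequences are those of the 5 strongest regions and of windows with a DR1 or NF-kB match, and of the other pathway genes those with the 5 highest −log10 q, ties included, are named, except for an item that is not reported here. Peak numbers were compared by an exact permutation test (two-sided). Intervals are exact (Clopper-Pearson for shares). Steps were tested on simulated data. Alternatives were a stricter overlap, a stricter −log10 q, lists of like length, other gene assignments and each library left out. Software was pysam 0.24.0, scipy 1.17.1, pandas 2.3.3, numpy 2.4.6 and matplotlib 3.10.9 under Python 3.11.15.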

Additional observations from a re-analysis of the deposited data

How the results depend on the processing

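Of 87 values under other settings, 65 were labelled the same, 22 moved and 0 reversed. For counts, the same meant a change of at most 1.5 times. The share of all genes had to stay within its 95% exact interval, and the values of a strongest region had to be identical. A ratio of WT to KO peaks was the same whenever it stayed above 1, however far it fell. Only ratios could be labelled reversed, so the 0 says nothing about the other values. The count of 19 genes with a shared region was 13 with an overlap of at least 50% of both peaks (5.31% of all genes) and 13 with a −log10 q of at least 5 (6.36%), which lose different genes: Ccl9, Cxcl14 and Ptgs2 only in the first, Ccl2, Cxcl1 and Il10ra only in the second, and Ccl22, Il1b and Il1rn in both. It was 14 when the WT G list was cut to as many peaks as WT A has (7.35%), 18 with the 5′ ends of genes alone (without Il18), 20 with RefSeq (with Ccl4), and 19 from summits and within 100 kb. With the 50% overlap there were 20 regions and 16 other pathway genes. Of the 20 regions 0 had a KO peak by this rule, which the short KO G peak (193 bp) inside the kept Ccl6 region (2663 bp) cannot meet. For 12 of the 13 genes the strongest region kept its values, and only Cxcl2 changed to its promoter region (8.06 and 14.5). With a −log10 q of at least 5 there were 29 regions. Counting any TSS within 50 kb gave 47 other pathway genes. Promoters of 3 kb on each side gave 16 regions. DR1 matches numbered 0 with at most 1 mismatch and 5 within 100 bases of the summit, and NF-kB matches 7 and 2. For promoters and motifs, the shares of all shared regions given in the Results hold for the main settings only. The counts under the changed rules therefore have no background beside them.

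Leaving out WT A or WT G left the peaks of the other list as regions. The count of genes was then 20 to 28 (10.4% to 16.6% of all genes), regions numbered 61 to 108, and other pathway genes 29 to 47, each highest without WT A. Without KO G, 0 regions had a KO peak, and without KO A 2 had. WT over KO peaks gave a ratio of 46.5 with a −log10 q of at least 5, 56.5 with WT G cut to as many peaks as WT A, 42.25 without KO A, 61 without WT G and 108 without WT A, and, against a floor of 3 peaks, at least 28.2 without KO G. The letters A and G are shared between genotypes, but nothing given says that they pair the libraries; with the replicate block the ratio was at least 20.3 within letter A (floor of 3 peaks) and 54 within letter G. With 2 pairs no check of the pairing was possible. Depth limits KO A, where 21 of 44 regions fell below its weakest peak at the WT A rate.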

Other observations

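Some peaks at these genes lay outside the shared regions. WT G held 63 such peaks among its 108 (58.3%, against 63.9% of all its peaks), with a median −log10 q of 3.87, a median of 8 fragments and a highest −log10 q of 9.26. WT A held 6 among its 61 (9.84%, against 16.8%), with a median of 4.76, a median of 14.5 fragments and a highest of 9.11. The KO lists held 0 peaks at these genes outside the shared regions.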
